A study of Mus musculus with 4 samples.

Results

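Microglia and perivascular macrophages were taken from droplet libraries of mouse retina as barcodes chosen by their complement C1q counts. Barcodes under 500 UMIs (unique molecular identifiers, each standing for 1 captured transcript), under 300 genes or over 20% mitochondrial UMIs were left out. Any other barcode was called a phagocyte with 5 or more UMIs of C1qa, C1qb and C1qc together over at least 2 of these genes, and at least 1 UMI of Ctss, Tyrobp or Csf1r. Of 19716 barcodes that passed, 184 were phagocytes: 50 in Ctrl 1, 24 in Ctrl 2, 73 in Diabetic 1 and 37 in Diabetic 2.

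The series profiled retinal cells enriched on CD31 microbeads, a surface protein of endothelial cells, from control (Ctrl) and Diabetic mice, with 2 single-cell libraries in each group on the 10x Genomics 3′ platform. Its title names retinal endothelial cells and the blood-retina barrier in diabetic retinopathy as the subject. The labels give the disease state, the tissue and the selected cell type for each group, and no strain, age, sex, diabetes model or duration is used here because none is stated in them. The labels do not say that replicates came from separate animals, so every p below measures only the spread between these libraries, which may be technical.

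Microglia are the resident macrophages of the neural retina. They survey the tissue through purinergic and fractalkine receptors such as P2ry12 and Cx3cr1, and supply most of the C1q that tags synapses and debris. Perivascular macrophages sit on the vessel wall, and are recognised by scavenger receptors such as Mrc1 (CD206) and Stab1 and by the chemokine Pf4. Both kinds of cell can present antigen on MHC class II and can call in other leukocytes with chemokines.

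To keep apart a change in which cells were captured and a change within cells, the phagocytes were split by genes that are described without a test inside the split. Barcodes with 2 or more UMIs of Mrc1 and Pf4 together formed the Mrc1 and Pf4 set. Barcodes below that limit with at least 1 UMI of P2ry12, Tmem119 or Cx3cr1 formed the microglia set. The microglia set held 26, 14, 46 and 23 barcodes in Ctrl 1, Ctrl 2, Diabetic 1 and Diabetic 2, and values in this order are used throughout. The Mrc1 and Pf4 set held 11, 5, 12 and 5 barcodes, and 13, 5, 15 and 9 barcodes fell in neither set. A further class, barcodes with 5 or more UMIs of H2-Aa, H2-Ab1 and Cd74, cut across these sets and held 3, 2, 13 and 4 barcodes.

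The markers bore out the label only in part. In all phagocytes 12 of 12 listed microglial markers and 12 of 12 perivascular macrophage markers were detected. Of 10 neutrophil markers 7 were detected, summed at 124, 99.6, 484 and 683 CPM (UMIs scaled to a total of 1000000), of which Lcn2 made up 129 of 183 and 108 of 137 Diabetic UMIs, while Ly6g, Camp and Cxcr2 were at 0. Of 10 dendritic cell markers 6 were detected (7, 9, 26 and 7 UMIs), and of 10 T, B and NK cell markers 3 were (2, 0, 5 and 0 UMIs). Rod markers were summed at 13659, 7169, 11535 and 4330 CPM, beside 11696, 12586, 7862 and 11187 CPM for the microglial markers. Endothelial markers were summed at 729, 3654, 2232 and 1565 CPM and erythrocyte markers at 18.5, 29.9, 3573 and 49.8 CPM. Of the 1351 erythrocyte UMIs of Diabetic 1, 1325 lay in barcodes of neither set, and 1 barcode held 924 of its 944 Hbb-bs UMIs. The part of these cells in the results was not tested. Within the microglia set, which the split keeps to at most 1 UMI of Mrc1 and Pf4, 5 of the 12 perivascular markers were detected, with 45, 29, 99 and 42 UMIs in sum; Cd163, Lyve1, F13a1 and Folr2 were among the 7 at 0. The 42 barcodes in neither set met no split criterion of Mrc1, Pf4 or the microglial genes and are named only by the rule.

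Some technical measures moved with the groups. The median phagocyte held 1739 and 1364 UMIs in the Ctrl libraries and 4296 and 3852 in the Diabetic libraries, while rod photoreceptors did not show this order (2258, 3177, 1909 and 3184). The median mitochondrial share was 5.06%, 3.74%, 2.00% and 2.66%, and 3, 2, 11 and 6 phagocytes also carried endothelial UMIs. The summed phagocyte UMIs were 161940, 100432, 378152 and 200677, and libraries shared 5 to 9 barcodes in each pair, none of them phagocytes. The C1q limit left 13 barcodes just outside it, with 3 or 4 C1q UMIs, and 20 just inside it, with 5 or 6.

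Phagocytes made up 0.852% of passing barcodes in Ctrl 1 (95% exact Clopper-Pearson interval 0.633 to 1.12), 0.984% in Ctrl 2 (0.632 to 1.46), 0.925% in Diabetic 1 (0.726 to 1.16) and 1.05% in Diabetic 2 (0.741 to 1.45). The intervals overlap in all 4 libraries and cover counting error only. The means, 0.918% ± 0.0936 in Ctrl and 0.988% ± 0.0893 in Diabetic (SD, n = 2), gave p = 0.667 in a two-sided exact permutation test, which cannot go below 0.33 for 2 against 2 libraries. CD31 enrichment can set this share, so it is no measure of how many phagocytes the retina held.

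The mix of phagocytes was also similar in the libraries within wide errors. The P2ry12, Tmem119 or Cx3cr1 criterion was met by 68.0%, 66.7%, 68.5% and 73.0% of phagocytes. The Mrc1 and Pf4 criterion was met by 22.0%, 20.8%, 16.4% and 13.5%, so both Diabetic shares were below both Ctrl shares. The MHC class II criterion was met by 6.0%, 8.33%, 17.8% and 10.8%, with both Diabetic shares above both Ctrl shares. No share gave an exact permutation p below 0.33. After thinning each barcode to 1500 UMIs, which left 24, 8, 45 and 26 barcodes, the Mrc1 and Pf4 shares were 20.8%, 12.5%, 11.1% and 7.69% and the MHC class II shares were 0%, 12.5%, 6.67% and 11.5%. The Mrc1 and Pf4 order held at equal depth and the MHC class II order did not.

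Apoe separated the microglia of the groups. Apoe encodes apolipoprotein E, a lipid carrier that microglia make when they leave the resting state, and lies at chr7:19696109-19699188 on the minus strand (GRCm38). The microglia set held it at 523 and 102 CPM in the Ctrl libraries and 15972 and 15805 CPM in the Diabetic libraries (CPM, summed UMIs scaled to 1000000 per set and library). The counts behind these levels were 49, 8, 4586 and 2465 UMIs, and the groups do not overlap. The level was 312 ± 298 CPM (SD, n = 2) in Ctrl against 15889 ± 118 CPM (SD, n = 2) in Diabetic. Apoe rose in edgeR's quasi-likelihood test (log2 fold change 5.73, SE 0.66, adjusted p = 0.039), in which 2 of 2221 genes passed (0.0900%) and 47 higher and 30 lower genes had an unadjusted p under 0.05. Leaving out Ctrl 2 put the adjusted p at 0.068, at a log2 fold change of 5.0.

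The difference lay in many barcodes, not in 1. At least 10 Apoe UMIs were found in 1 of 26 microglia-set barcodes in Ctrl 1 (3.85%, 95% exact interval 0.0973 to 19.6) and in 0 of 14 in Ctrl 2 (upper exact limit 23.2%). In Diabetic 1 the count was 27 of 46 (58.7%, 43.2 to 73.0) and in Diabetic 2 it was 10 of 23 (43.5%, 23.2 to 65.5). Without the largest barcode of each library the levels were 569 and 16.1 CPM in the Ctrl libraries and 17856 and 17064 CPM in the Diabetic libraries. The Diabetic barcodes of the set differed among themselves: 11 of 46 and 7 of 23 barcodes held no Apoe UMI at all, beside barcodes with up to 952 and 571. The Diabetic 1 barcodes with the most Apoe, 952 and 502 UMIs, also met the MHC class II criterion, with 91 and 68 H2-Aa UMIs. The Diabetic 2 barcode with 571 did not.

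The difference was also present at equal depth. Thinned to 1500 UMIs, 1 of 17 Ctrl 1 and 1 of 9 Ctrl 2 microglia-set barcodes carried an Apoe UMI (5.88% and 11.1%), against 27 of 39 and 14 of 20 in the Diabetic libraries (69.2% and 70.0%). Rods, which should lack Apoe and so show the free RNA of each library, carried one in 22.0%, 19.2%, 25% and 24.1% of equally thinned barcodes. The Ctrl microglia were thus at or below the rod background, and the Diabetic microglia well above it. Median unthinned depths were 3476, 2653, 5094 and 6676 UMIs in the microglia set, where 53.8%, 14.3%, 76.1% and 69.6% of barcodes held an Apoe UMI.

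**Figure D1:**
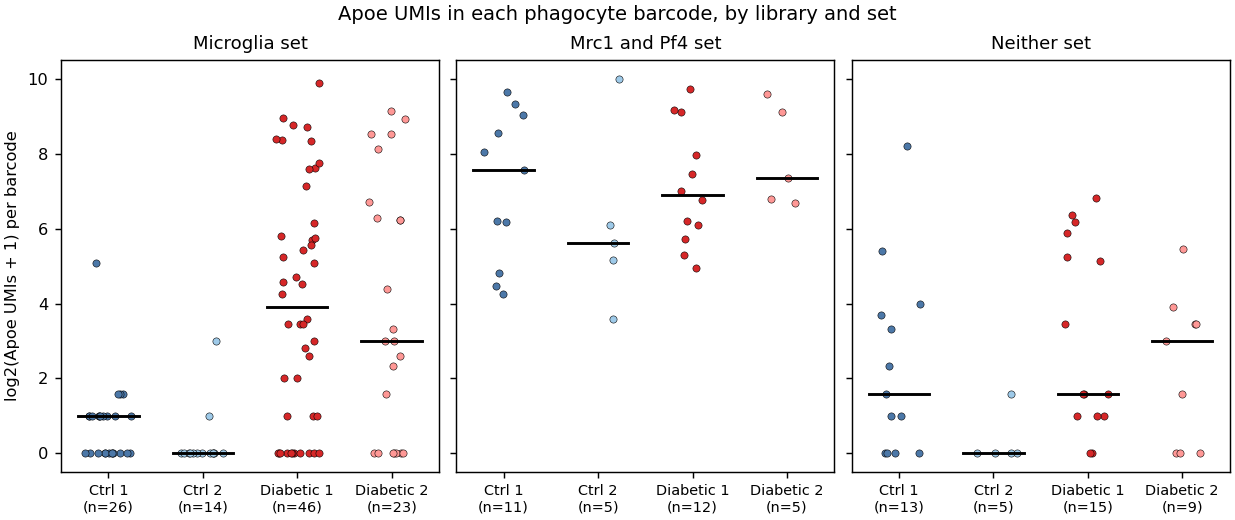
Each point is 1 phagocyte barcode, with log2(Apoe UMIs + 1) on the vertical axis, the 4 libraries on the horizontal axis and bars at the median; the panels are the microglia set, the Mrc1 and Pf4 set and the barcodes in neither. In the microglia set nearly all Ctrl barcodes lie at 0 to 7 UMIs and 1 at 33, while the Diabetic barcodes spread from 0 to 952; in the Mrc1 and Pf4 set all barcodes of all libraries hold at least 10.

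RNA of other cells that make Apoe was measured beside it. The summed Müller glia markers in the microglia set were at 992, 1135, 951 and 596 CPM, and the summed perivascular macrophage markers at 480, 370, 345 and 269 CPM. The perivascular sum is limited by the split, which uses Mrc1 and Pf4, and the part of either source in the Apoe level was not tested. The microglial markers were summed at 16760, 14165, 9595 and 13542 CPM. Mrc1 and Pf4 were lower in Diabetic, so a perivascular macrophage with at most 1 UMI of them and 1 microglial UMI would enter the microglia set. In a narrower set with at least 3 microglial UMIs and no UMI of Mrc1 or Pf4 the log2 fold change of Apoe was 7.13 (adjusted p = 3.4e-05, edgeR), and without barcodes that carried endothelial or rod RNA it was 8.02 (adjusted p = 2.1e-08). Both fits rest on the same split genes, so they cannot tell such a macrophage from a microglial cell. In the Mrc1 and Pf4 set 8, 2, 4 and 4 barcodes also met the microglial criterion.

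Diabetic microglia-set barcodes with 10 or more Apoe UMIs (Apoe-rich) still carried microglial genes. Sall1, a transcription factor that marks microglia among macrophages, was found in 10 of the 27 such barcodes of Diabetic 1 (29 UMIs) and in 10 of the 10 of Diabetic 2 (30 UMIs). Among barcodes with fewer Apoe UMIs Sall1 was found in 11 of 19 of Diabetic 1 (23 UMIs) and in 5 of 13 of Diabetic 2 (7 UMIs). Its level was thus lower in the Apoe-rich barcodes of Diabetic 1 (149 against 247 CPM) and higher in those of Diabetic 2 (281 against 142 CPM). Lyz2, lysozyme, was at 851 against 279 CPM in Diabetic 1 and at 562 against 284 CPM in Diabetic 2. The summed microglial markers of the Apoe-rich barcodes, without the split genes, were at 5278 CPM in Diabetic 1, below the 10104 CPM of the barcodes of that library with fewer Apoe UMIs, and at 9583 CPM in Diabetic 2, against 8636 CPM. The summed rod markers were at 14005 against 6861 CPM in Diabetic 1 and at 3129 against 4775 CPM in Diabetic 2, and the median depths were 5213 against 4965 and 10345 against 2157 UMIs. The part of rod RNA and depth in these levels was not tested. Of the perivascular markers outside the split, Stab1 had 10 UMIs in 8 Apoe-rich barcodes of Diabetic 1 and 8 UMIs in 5 of Diabetic 2, and Ms4a7 had 22 UMIs in 4 barcodes of Diabetic 1 and none in Diabetic 2, while F13a1 had none in either.

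This difference was not seen in the sum of all phagocytes, where Apoe was measured at 21366 and 11968 CPM in the Ctrl libraries and 20933 and 21243 CPM in the Diabetic libraries (log2 fold change 0.41, SE 0.40, adjusted p = 1.0). The Mrc1 and Pf4 set carried Apoe at similar levels in all 4 libraries. In the Mrc1 and Pf4 set Apoe stood at 69461 and 71902 CPM in the Ctrl libraries and 74069 and 64645 CPM in the Diabetic libraries, with log2 fold change -0.15, and all 33 barcodes of that set held at least 10 Apoe UMIs. Of all phagocyte Apoe UMIs in the Ctrl libraries, 49 of 3460 and 8 of 1202 came from the microglia set, against 4586 of 7916 and 2465 of 4263 in the Diabetic libraries. The difference between the sets in their Diabetic effect was itself tested, and Apoe passed (interaction log2 fold change 5.83, SE 0.81, adjusted p = 0.0055; 4 of 1219 genes passed, 0.328%); without Ctrl 1 the adjusted p was 0.33 at a log2 difference of 7.22.

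Ccl12, a CC chemokine that attracts monocytes, was the other gene called in the microglia set. It was measured there at 42.7 and 25.5 CPM in the Ctrl libraries and 867 and 513 CPM in the Diabetic libraries (log2 fold change 4.36, SE 0.51, adjusted p = 0.039). The Diabetic counts were uneven: 172 of 249 UMIs in Diabetic 1 lay in 1 barcode, although 14 and 13 Diabetic barcodes carried the gene against 3 and 2 Ctrl barcodes. Without MHC class II barcodes the adjusted p was 0.60, with a log2 fold change of 4.22, and in the narrower microglia set it was 0.075.

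In the Mrc1 and Pf4 set the chemokines lay the other way round. Ccl12 stood there at 1262 and 7419 CPM in the Ctrl libraries and 102 and 264 CPM in the Diabetic libraries, and Ccl2, its neighbour on chromosome 11 (chr11:82035571-82037453) and the main ligand of the monocyte receptor Ccr2, at 2546 and 6334 CPM in the Ctrl libraries and 381 and 0 CPM in the Diabetic libraries. Ccl2 in the microglia set was at 107 and 421 CPM in the Ctrl libraries and 352 and 442 CPM in the Diabetic libraries. The difference in Diabetic effect between the sets passed for Ccl12 (interaction log2 fold change 8.56, SE 0.89, adjusted p = 0.00056), for Ccl2 (log2 fold change 5.11, SE 0.84, adjusted p = 0.015) and for Ier3, an immediate early gene of NF-kB signalling (log2 fold change 4.84, SE 0.76, adjusted p = 0.012). Without Ctrl 1 the adjusted p was 0.43 for Ccl2 and 0.40 for Ier3.

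These chemokine values rest on few barcodes. All 105 Ccl2 UMIs, all 59 Ccl7 UMIs and 121 of 123 Ccl12 UMIs of the Ctrl 2 Mrc1 and Pf4 set lay in its largest barcode, which held 72.1% of that set's UMIs. In Ctrl 1, Ccl7 (chr11:82045712-82047525) was spread over 4 barcodes, the highest with 30 of 45 UMIs. Over all phagocytes Ccl7, another monocyte-attracting chemokine, fell: it was measured at 278 and 587 CPM in the Ctrl libraries and 10.6 and 0 CPM in the Diabetic libraries (log2 fold change -5.84, SE 0.71, adjusted p = 0.0093). Every Ccl7 UMI in every library came from the Mrc1 and Pf4 set.

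**Figure D2:**
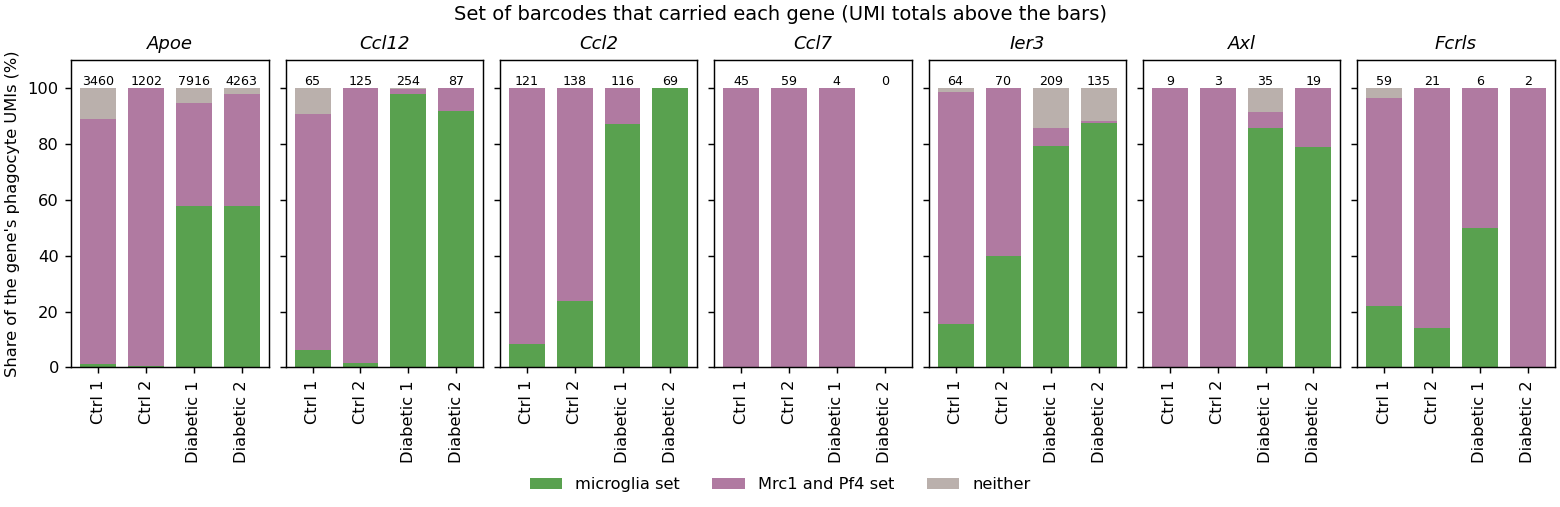
Stacked bars give the percent of each gene's phagocyte UMIs that came from the microglia set, the Mrc1 and Pf4 set and neither, for the 4 libraries, with the total UMIs above each bar. Apoe, Ccl12, Ccl2 and Ier3 came mainly from the Mrc1 and Pf4 set in Ctrl and mainly from the microglia set in Diabetic, while Ccl7 came from the Mrc1 and Pf4 set wherever it was found; Diabetic 2 had no Ccl7 UMI.

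Mrc1, which marks perivascular macrophages, fell in the Diabetic phagocytes, and the other perivascular genes tested had lower values without passing. Over all phagocytes 9 of 3234 genes passed the test (0.278%), 6 higher (0.186%) and 3 lower (0.0928%), and 137 had an unadjusted p under 0.05. The 3 lower genes were Fcrls, Mrc1 and Ccl7; with equal numbers of barcodes from each split class none of them passed (adjusted p = 0.27, 0.27 and 0.11), nor did Mrc1 without the MHC class II barcodes (0.37). Of the 12 perivascular markers listed, 7 could be tested; all 7 had a log2 fold change below 0, with a median of -2.05 against 0.03 over all genes, and 1 of them, Mrc1, passed. In this sum, fewer cells of a type and less RNA per cell cannot be told apart.

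Mrc1, the mannose receptor (chr2:14229392-14332057), was measured at 445 and 249 CPM in the Ctrl libraries and 47.6 and 34.9 CPM in the Diabetic libraries over all phagocytes (log2 fold change -2.99, SE 0.43, adjusted p = 0.024). Both Diabetic libraries were below both Ctrl libraries. Pf4, platelet factor 4, stood at 969 and 906 CPM in the Ctrl libraries and 138 and 254 CPM in the Diabetic libraries (log2 fold change -2.22, SE 0.40, adjusted p = 0.075), and Stab1, a scavenger receptor, at 321 and 259 CPM in the Ctrl libraries and 66.1 and 69.8 CPM in the Diabetic libraries (log2 fold change -2.05, SE 0.37, adjusted p = 0.074). Neither passed, nor did Dab2, an endocytic adaptor (log2 fold change -2.01, adjusted p = 0.10). With DESeq2 in place of edgeR, Pf4 and Stab1 passed (adjusted p = 1.4e-05 and 0.017). In edgeR they also passed when Ctrl 1, Ctrl 2 or Diabetic 2 was left out, and not when Diabetic 1 was (adjusted p = 0.11 and 0.17).

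Inside the Mrc1 and Pf4 set, where every barcode carried Mrc1 or Pf4 by rule, the levels of the same genes can be compared without the share of the set. Stab1 was at 1193 and 1146 CPM in the Ctrl libraries and 229 and 151 CPM in the Diabetic libraries, with groups that do not overlap (adjusted p = 0.058 in edgeR, adjusted over the genes that neither the rule nor the split used). F13a1, the coagulation factor XIII A chain of perivascular macrophages, was at 1169.9 and 965 CPM in the Ctrl libraries and 686 and 679.7 CPM in the Diabetic libraries, and Lyz2, lysozyme, at 6790.1 and 4403 CPM in the Ctrl libraries and 8735 and 6759 CPM in the Diabetic libraries. Folr2, a folate receptor, was at 321 and 181 CPM in the Ctrl libraries and 50.8 and 37.8 CPM in the Diabetic libraries, and Ms4a7 at 872 and 724 CPM in the Ctrl libraries and 508 and 679.7 CPM in the Diabetic libraries. Folr2 and Stab1 differed by several fold, whereas F13a1 and Ms4a7 were closer and Lyz2 overlapped between the groups. The set held 43593, 16578, 39382 and 26483 UMIs in all, so the Folr2 values stand for few UMIs, near the detection limit in the Diabetic libraries. Without the largest barcode of each library Stab1 was at 1309, 649, 258 and 175 CPM, from 46, 3, 8 and 3 UMIs.

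The split genes themselves are given only as values here. Mrc1 stood at 1652 and 1508 CPM in the Ctrl libraries and 457 and 227 CPM in the Diabetic libraries and Pf4 at 3533 and 5489 CPM in the Ctrl libraries and 1295 and 1888 CPM in the Diabetic libraries in the set that they define. Mrc1 was found in 9 of 11, 4 of 5, 8 of 12 and 4 of 5 barcodes, so it was met in most barcodes of each library and at fewer UMIs in the Diabetic ones. Without the largest barcode of each library Mrc1 was at 1765 and 1948 CPM in the Ctrl libraries and 580.1 and 292 CPM in the Diabetic libraries, from counts of 62, 9, 18 and 5 UMIs. The set's summed endothelial markers were at 68.8, 121, 1295 and 4040 CPM, so endothelial RNA was higher in the Diabetic barcodes, and its part in the values was not tested; in the barcodes free of endothelial and rod RNA (8, 4, 8 and 3) Mrc1 was at 1795, 1495, 436 and 181 CPM.

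Fcrls was the 1 gene of 411 tested that passed inside this set (0.243%; 27 higher and 49 lower at an unadjusted p under 0.05). Fcrls is an Fc receptor-like scavenger receptor usually listed as a microglial gene (chr3:87250758-87263738, minus strand). It was measured at 1009 and 1086 CPM in the Ctrl libraries and 76.2 and 75.5 CPM in the Diabetic libraries in the set (log2 fold change -3.83, adjusted p = 0.037, edgeR) and at 364 and 209 CPM in the Ctrl libraries and 15.9 and 9.97 CPM in the Diabetic libraries over all phagocytes (log2 fold change -4.32, SE 0.49, adjusted p = 0.0081). Most of its UMIs came from the Mrc1 and Pf4 set: 44 of 59 and 18 of 21 in the Ctrl libraries, and 3 of 6 and 2 of 2 in the Diabetic libraries. It had in the microglia set only 13, 3, 3 and 0 UMIs, while P2ry12, another microglial gene, was there at 1163 and 1135 CPM in the Ctrl libraries and 543 and 808 CPM in the Diabetic libraries. Without the barcodes that carried other cells' RNA, Fcrls in the Mrc1 and Pf4 set was at 1047, 1040, 87.1 and 60.3 CPM. These values came from 7 of 8, 1 of 4, 2 of 8 and 1 of 3 barcodes, so the Ctrl 2 value rests on 1 barcode. Without the largest barcode of each library Fcrls was at 1053, 433, 96.7 and 117 CPM, from 37, 2, 3 and 2 UMIs.

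**Figure D3:**
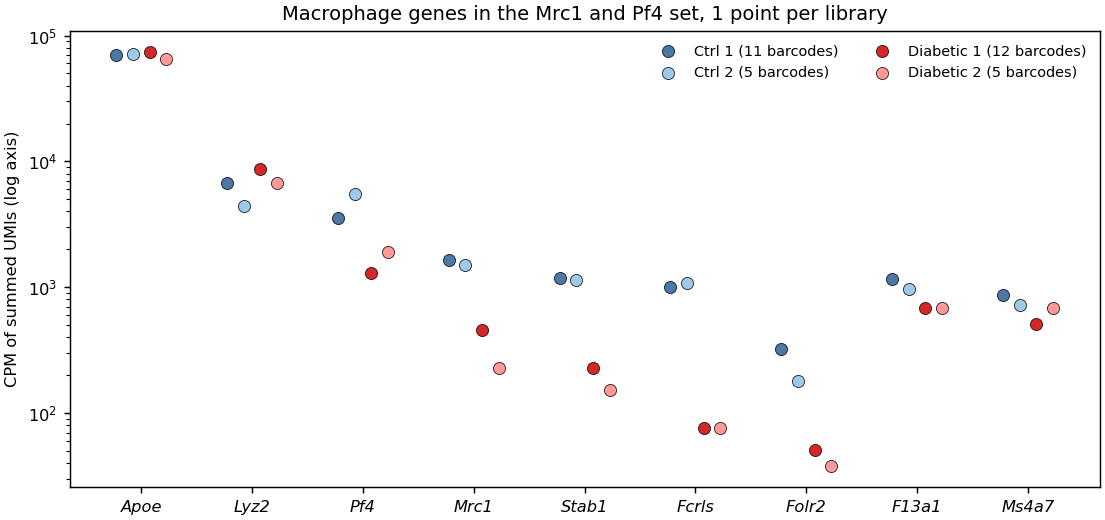
Summed UMIs of the Mrc1 and Pf4 set are shown as CPM on a log axis for 9 macrophage genes, 1 point per library. Mrc1, Pf4, Stab1, Fcrls, Folr2, F13a1 and Ms4a7 lie lower in both Diabetic libraries than in both Ctrl libraries, by less for F13a1 and Ms4a7. Lyz2 overlaps between the groups, and Apoe lies between 64645 and 74069 CPM in all 4.

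The MHC class II gene H2-Eb1 rose in the Diabetic phagocytes, in few barcodes. H2-Eb1, the beta chain of the I-E molecule, was measured at 12.4 and 29.9 CPM in the Ctrl libraries and 346 and 174 CPM in the Diabetic libraries (log2 fold change 3.78, SE 0.59, adjusted p = 0.035). H2-Ea, the alpha chain of I-E, had 0, 1, 147 and 14 UMIs (adjusted p = 0.14). H2-Aa, the alpha chain of I-A, was at 30.9 and 19.9 CPM in the Ctrl libraries and 529 and 145 CPM in the Diabetic libraries and H2-Ab1, its beta chain, at 30.9 and 79.7 CPM in the Ctrl libraries and 413 and 184 CPM in the Diabetic libraries; their adjusted p were 0.092 and 0.18. Without Diabetic 2, H2-Aa and H2-Ab1 passed (adjusted p = 7.4e-11 and 5.4e-06). The invariant chain Cd74 was at 235 and 707 CPM in the Ctrl libraries and 1510.0 and 319 CPM in the Diabetic libraries, and there the groups overlap. Of the 10 listed class II genes 5 were tested, all above 0 with a median log2 fold change of 2.59, and 1 passed, beside 0.278% of all genes.

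The promoters of the gene that passed and of H2-Aa, a split gene of the class II criterion, are shown because both hold the Y box, the inverted CCAAT element (CTGATTGG) of class II promoters to which NF-Y binds. They are the RefSeq entries on GRCm38.p6, 250 bases before to 50 after the start, 5′ to 3′ on the gene's strand, with the box in capitals; it begins 51 bases before the start in H2-Aa (chr17:34287774-34288073, minus strand) and 62 in H2-Eb1 (chr17:34305617-34305916, plus strand).
H2-Aa: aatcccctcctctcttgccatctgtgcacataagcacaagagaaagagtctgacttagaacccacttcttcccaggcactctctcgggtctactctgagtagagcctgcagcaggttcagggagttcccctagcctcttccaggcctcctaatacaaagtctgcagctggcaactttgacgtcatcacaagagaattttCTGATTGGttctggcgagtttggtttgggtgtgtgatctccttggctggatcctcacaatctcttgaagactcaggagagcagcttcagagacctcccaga
H2-Eb1: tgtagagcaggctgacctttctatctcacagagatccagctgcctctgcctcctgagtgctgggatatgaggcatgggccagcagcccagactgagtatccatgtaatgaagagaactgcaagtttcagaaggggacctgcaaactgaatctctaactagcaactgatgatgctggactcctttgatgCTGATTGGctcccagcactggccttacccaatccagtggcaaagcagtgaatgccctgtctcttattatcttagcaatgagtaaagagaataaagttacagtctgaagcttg
Searched on both strands, the 8 letters were found in 1346 of 32851 promoters in the table (4.10%) and in 3 of the 7 listed class II genes with an entry, H2-Aa, H2-Eb1 and H2-Oa. A match is a description of the letters only.

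The class II signal was not spread over the phagocytes. H2-Eb1 had 2, 3, 131 and 35 UMIs in 1, 2, 9 and 2 barcodes, and 1 barcode held 64 of the 131 UMIs in Diabetic 1 and another 28 of the 35 in Diabetic 2. H2-Aa in the microglia set had 0, 0, 162 and 1 UMIs, in 3 barcodes of Diabetic 1 and 1 of Diabetic 2, so the Diabetic libraries differed there as much as the groups did. With the 22 class II barcodes left out, edgeR called no gene in either direction over all phagocytes, with 87 higher and 83 lower genes at an unadjusted p under 0.05. These 22 also held much of other called genes. They carried 127 of 129 Lcn2 and 58 of 59 Ackr1 UMIs of Diabetic 1. In Ctrl 2 they carried 59 of 59 Ccl7, 18 of 21 Fcrls and 18 of 25 Mrc1 UMIs. The loss of calls is thus not particular to class II expression, and the part of single barcodes in it was not tested. In endothelial barcodes H2-Aa was at 2.36, 1.99, 7.66 and 3.61 CPM. Ccr2, a monocyte receptor, had 1 UMI in all phagocytes, and the listed monocyte markers were summed at 111, 219, 304 and 130 CPM; their part in the class II result was not tested.

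The other 5 genes that were higher in Diabetic are known from the vessel wall or from inflammation, and for Lcn2, Lrg1, Ackr1 and Vcam1 most Diabetic UMIs sat in 1 barcode per library. Lcn2, lipocalin 2, an iron-scavenging acute-phase protein, was measured at 0 and 0 CPM in the Ctrl libraries and 341 and 538 CPM in the Diabetic libraries, at least 35.8-fold higher against the limit of 3 counts over both Ctrl libraries. Lrg1, a leucine-rich glycoprotein of inflamed vessels, was at 0 and 0 CPM in the Ctrl libraries and 103 and 115 CPM in the Diabetic libraries, at least 9.37-fold higher by the same limit. Ackr1, the atypical chemokine receptor of venules, was at 0 and 9.96 CPM in the Ctrl libraries and 156 and 219 CPM in the Diabetic libraries, and Vcam1, a leukocyte adhesion molecule, at 6.18 and 9.96 CPM in the Ctrl libraries and 138 and 119.6 CPM in the Diabetic libraries. A single barcode held 127 of 129 Lcn2 UMIs in Diabetic 1 and another 107 of 108 in Diabetic 2.

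The same 2 barcodes held 58 of 59 and 43 of 44 Ackr1 UMIs, 37 of 39 and 21 of 23 Lrg1 UMIs and 37 of 52 and 22 of 24 Vcam1 UMIs. They also carried 19 and 9 UMIs of Cldn5 and 28 and 12 of Flt1, both endothelial genes, beside 21 and 5 C1q UMIs, and Scrublet did not mark them as doublets. Lcn2 in endothelial barcodes was at 3.98, 5.04, 135 and 188 CPM. Lcn2 in the microglia set had 0, 0, 2 and 0 UMIs. Lrg1 was not called without either Diabetic library (adjusted p = 0.15 and 0.091), nor Vcam1 without Diabetic 1 (0.15). Cxcl12, the ligand of Cxcr4, was at 80.3 and 49.8 CPM in the Ctrl libraries and 640.0 and 543 CPM in the Diabetic libraries (log2 fold change 3.19, SE 0.40, adjusted p = 0.010). Its highest barcode held 64 of 242 and 46 of 109 Diabetic UMIs, and 230 of 242 and 105 of 109 of its Diabetic UMIs lay in barcodes with endothelial UMIs.

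**Figure D4:**
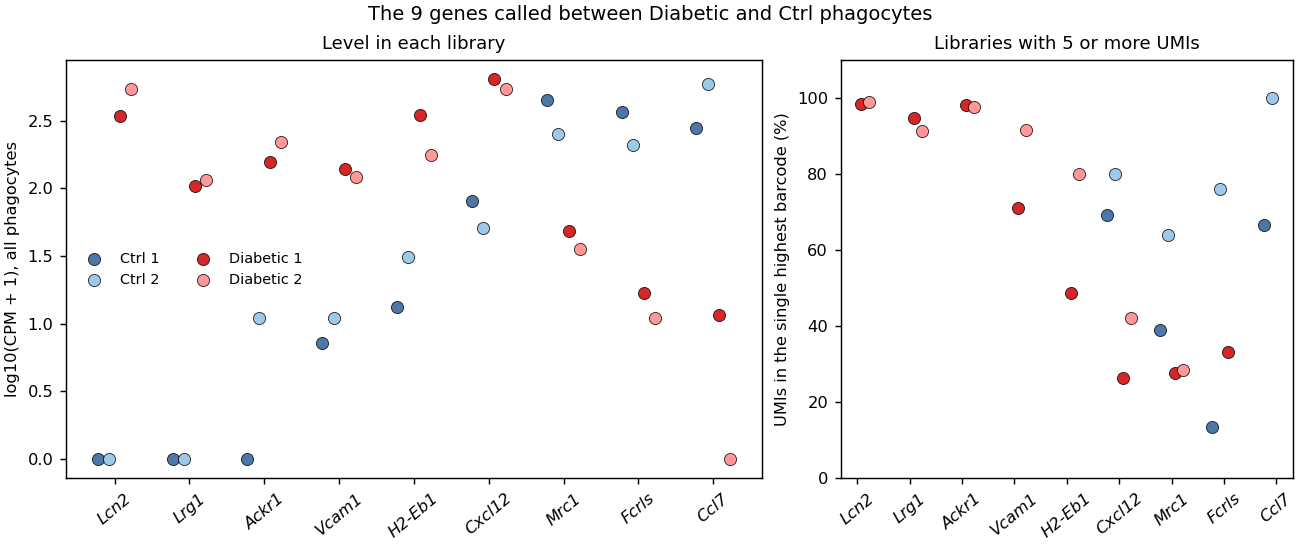
The left panel gives log10(CPM + 1) over all phagocytes for the 9 genes that passed, 1 point per library, and the right panel the percent of a gene's UMIs that lay in its highest barcode, for libraries with 5 or more UMIs. The groups do not overlap for any of the 9; Lcn2, Lrg1 and Ackr1 have over 90% of their Diabetic UMIs in 1 barcode, while Fcrls in Ctrl 1 and Cxcl12 in Diabetic 1 are more spread.

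Resting-state genes of microglia showed no called difference in the microglia set. Of the list of microglial homeostasis 21 genes were tested there, none passed (0.0900% of all genes did) and the median log2 fold change was -0.19 against 0.02 over all genes. Sall1 was at 213 and 204 CPM in the Ctrl libraries and 181 and 237 CPM in the Diabetic libraries, and Trem2, a lipid receptor of microglia, at 1312 and 1300.5 CPM in the Ctrl libraries and 1003 and 1391 CPM in the Diabetic libraries. Among all phagocytes 25 of the list were tested, the median was -0.26, and 1, Fcrls, passed (0.278% of all genes did). P2ry12 (692 and 906 CPM in the Ctrl libraries and 413 and 643 CPM in the Diabetic libraries), Tmem119 and Cx3cr1 had log2 fold changes of -0.54, -0.42 and -0.26, none past the test.

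Genes of disease-associated microglia, the state reported around plaques and dying neurons, lay mostly above 0 where tested, but only 1 passed. In the microglia set 14 of the 26 were tested, 11 above 0 and 3 below. Their median log2 fold change was 0.37 against 0.02 over all genes, and the 1 that passed was Apoe (0.0900% of all genes did). Axl, a receptor for apoptotic cells, had no UMI in either Ctrl library and 30 and 15 UMIs in 17 and 10 Diabetic barcodes (at least 5.83-fold higher by the 3-count limit; adjusted p = 1.0 in edgeR, unadjusted 0.0020). Lpl had 2, 0, 7 and 2 UMIs, Itgax 0, 0, 1 and 1, and Cst7 1, 1, 1 and 0. Spp1, osteopontin, had 22 UMIs, all in 2 Diabetic 1 barcodes. Lpl, Itgax and Cst7 were thus at or near the detection limit in every library.

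Inflammatory genes gave values on both sides. Of the cytokine list 10 were tested in the microglia set with a median of 0.56, and 1, Ccl12, passed, against 0.0900% of all genes. Ccl3, a macrophage chemokine, was at 1174 and 1441 CPM in the Ctrl libraries and 1961 and 3103 CPM in the Diabetic libraries and Ccl4 at 1334 and 1339 CPM in the Ctrl libraries and 2072 and 2353 CPM in the Diabetic libraries, with both Diabetic libraries above both Ctrl libraries, but neither passed. Tnf was at 171 and 38.2 CPM in the Ctrl libraries and 185 and 244 CPM in the Diabetic libraries, and Il1b had 0, 2, 35 and 5 UMIs. NF-kB response genes (11 tested, median 0.19), interferon genes (7, -0.13) and MHC class I genes (11, -0.04) had no called member.

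Metabolic and stress lists held no called gene in the microglia set apart from Apoe, which the lipid list also holds. Their median log2 fold changes were 0.16 for 25 lysosomal genes, -0.06 for 14 glycolytic genes, 0.27 for 15 genes of the oxidative burst and antioxidants, and -0.45 for 9 heat shock genes. Mitochondrial transcripts had a median of -0.24 over 8 genes there and -0.55 over 10 genes in all phagocytes, beside the lower mitochondrial share given above. Cst3, cystatin C, was at 44189 and 36107 CPM in the Ctrl libraries and 17658 and 25942 CPM in the Diabetic libraries (log2 fold change -0.80, SE 0.42, adjusted p = 1.0), so both Diabetic values were below both Ctrl values without passing. Of immediate early genes, Fos was at 1420.3 and 1583 CPM in the Ctrl libraries and 1433 and 1136 CPM in the Diabetic libraries in all phagocytes and at 455, 577, 1278 and 1214 CPM in endothelial barcodes.

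**Figure D5:**
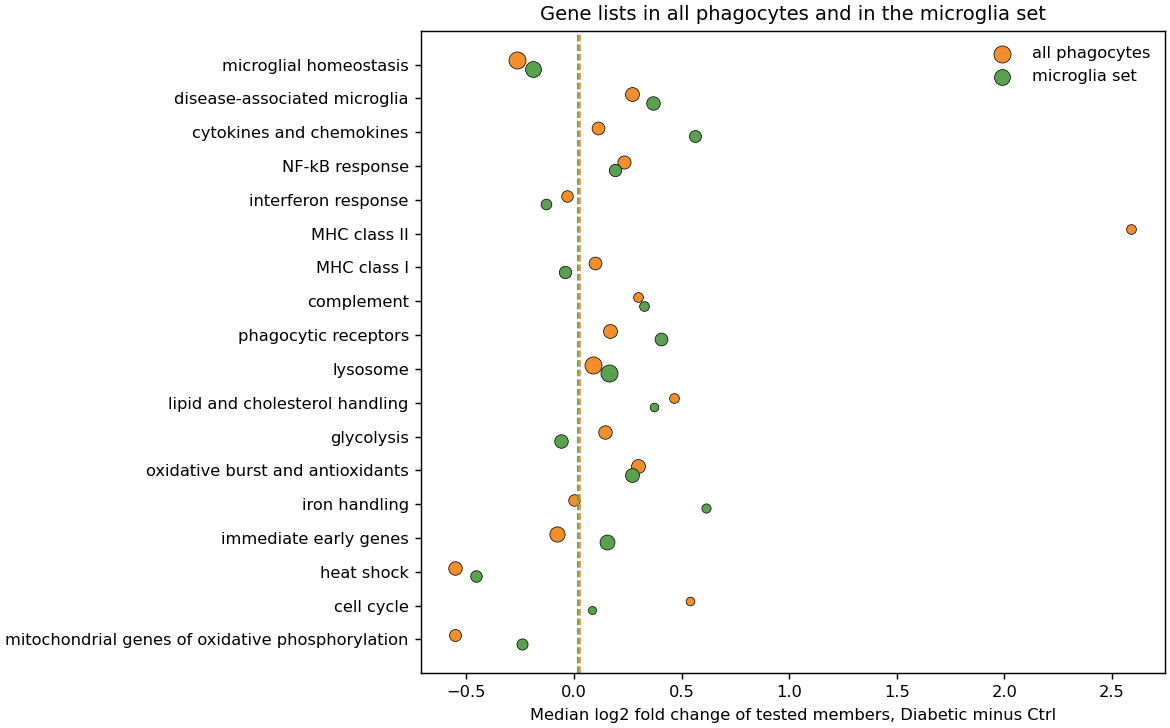
Points give the median log2 fold change (Diabetic minus Ctrl) of each gene program in all phagocytes and in the microglia set, larger where more members were tested, and dashed lines the medians over all genes, 0.03 and 0.02. Most programs lie within 0.6 of these lines and MHC class II in all phagocytes lies at 2.59 over 5 genes; cell type marker lists, and programs with fewer than 2 tested members in a fit, are not drawn.

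The Diabetic effect in phagocytes was compared with that in the 6783 endothelial barcodes of the same libraries. Of 14916 genes 36 passed the test of a different Diabetic effect (0.241%), 6 higher (0.0402%) and 30 lower (0.201%) in phagocytes. Of these 36, 25 were called in endothelial barcodes on their own and 1, Cxcl12, in phagocytes on their own; of the 23 tested in both, 16 had the larger change in endothelial barcodes. For Pf4 the difference passed (log2 difference -3.79, adjusted p = 3.0e-12), with endothelial barcodes at 1.77, 1.78, 6.52 and 4.35 CPM, and for Stab1 it was -2.11 (adjusted p = 0.0037). For Apoe in the microglia set against endothelial barcodes the log2 difference was 5.99 (adjusted p = 2.0e-12; 15 of 14712 genes passed, 0.102%, 2 higher, 0.0136%, and 13 lower, 0.0884%; 1 and 11 when p was adjusted without the rule and split genes), with endothelial Apoe at 595, 883, 788 and 802 CPM. That call was lost without either Ctrl library (adjusted p = 0.079 and 1.0, at log2 differences of 7.67 and 4.75).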

How the data were processed

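Retinal single-cell 3′ libraries (2 Ctrl, 2 Diabetic) were used as deposited: matrices of raw UMI counts per gene and barcode, made with Cell Ranger 7.0.0 per the file headers, with STAR 2.7.10b and the mm10 build per the submitters' processing notes. No value was normalized by the authors as far as the files show. Barcodes were chosen by the limits given above, doublets were marked with Scrublet (scanpy 1.11.5, expected rate 0.8% per 1000 barcodes) but kept, and levels are UMIs summed over barcodes per library scaled to 1000000 (CPM).

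Sums were tested with edgeR 4.0.16 (R 4.3.3; TMM, filterByExpr, quasi-likelihood F test, Benjamini-Hochberg, called at 0.05), with DESeq2 1.42.0 as an alternative. Rule genes, and inside the sets split genes, stayed in the fits and in the adjustment of p but are described without a test and left out of counts. Named genes were the rule, split and marker genes, called genes at a mean of 20 CPM or more with groups that do not overlap (else the 5 smallest p), up to 4 called or the 2 most abundant members of each list, the 5 largest called interactions and a preset list. Members, lists and named genes were chosen with earlier results of these data known. The microglia-set fit and the tests against it, the adjustment without rule and split genes, the 1500-UMI and Mrc1 and Pf4 subsets and the levels without the largest barcode were added after seeing the data. Ccl2, Ccl12, Axl, Cst3, Folr2 and other genes outside that rule were named after their values were seen. Tested on simulated phagocyte sums (2862 genes), the main test recovered 75 of 82 genes changed 4-fold and 82 of 82 changed 8-fold, with 15 false among 172 calls. The simulated counts were drawn per library and not per barcode, so genes carried by 1 barcode were not modelled. These rates need not hold for the real sums. Same-numbered libraries were weakly correlated (r = 0.0925, the same for both pairs by construction with 2 libraries per group). A batch shared by same-numbered libraries cannot be told from this value. Gene positions are from GENCODE on GRCm38.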

Additional observations from a re-analysis of the deposited data

Results flagged for a closer look

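The Diabetic effect differed between the microglia set and the Mrc1 and Pf4 set for 4 genes by the test of the difference itself (edgeR, both sets in 1 model). The log2 difference was 5.83 for Apoe, 8.56 for Ccl12, 5.11 for Ccl2 and 4.84 for Ier3, with adjusted p of 0.0055, 0.00056, 0.015 and 0.012. In the Mrc1 and Pf4 set alone the log2 fold changes were -0.15 for Apoe, -4.68 for Ccl12, -4.42 for Ccl2 and -3.23 for Ier3. The difference is one of Diabetic effect and not of level, and for all 4 genes that effect was higher in the microglia set. Without Ctrl 1, Ccl12 alone of the 4 still passed (adjusted p = 0.0026). The largest barcode of the Ctrl 2 Mrc1 and Pf4 set held all of that set's Ccl2 and Ier3 UMIs (105 and 42), and its part in the difference was not tested. Apoe also differed between the microglia set and endothelial barcodes, by 5.99.

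Another 5 genes with a different Diabetic effect in phagocytes and endothelial barcodes rest on single phagocyte barcodes. For Hba-a1 and Hba-a2, haemoglobin alpha chains, the log2 differences were 14.31 and 14.05, with 160 of 164 and 114 of 115 Diabetic 1 UMIs in 1 barcode and none in Ctrl phagocytes. For Saa3, an acute-phase protein, it was 12.69, with 170 of 173 UMIs in 1 Diabetic 1 barcode. For each of these genes that barcode lay in neither set, met the MHC class II criterion and carried endothelial UMIs. The Diabetic 1 barcode with 127 Lcn2 UMIs did so too, so these are not separate results from different kinds of barcode. For Col18a1, a basement membrane collagen, it was -13.11, from 6 and 8 UMIs in 1 barcode of each Ctrl library and none in Diabetic phagocytes. For Fbln1, an extracellular matrix protein, it was -7.90, with 16 of 17 Ctrl 1 UMIs in 1 barcode. These fitted values, with a group at or near 0 UMIs, depend on the prior count and are no measure of size.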

How the results depend on the processing

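The sums held 24 to 73 phagocytes per library, and the smallest Mrc1 and Pf4 sums 5; intervals cover counting error only. The genes called over all phagocytes (6 higher, 3 lower) became 35 and 20 with no filter on low counts, 19 and 14 with a replicate block, and 0 and 0 both without MHC class II barcodes (87 and 83 at an unadjusted p under 0.05) and with equal numbers from each split class (51 and 47). In the microglia set alone they were 2 and 0 (47 and 30 unadjusted), and in the Mrc1 and Pf4 set alone 0 and 1 (27 and 49). DESeq2 gave 11 lower, a C1q limit of 10 gave 6, leaving out Scrublet doublets 6 and leaving out barcodes with other cells' RNA 7. A 10% mitochondrial limit and a 1500-UMI limit each left 3 higher. Leaving out 1 library gave 10 to 31 higher and 9 to 19 lower; the 3 lower genes were called each time, and all 6 higher genes whenever a Ctrl library was left out.

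In the microglia set the calls (2 higher, 0 lower) became 10 and 4 with no filter, 1 higher in the narrower set, 1 higher without MHC class II barcodes, 5 higher without other cells' RNA, and 5 to 12 higher and 1 to 16 lower without 1 library. The interaction with endothelial barcodes (6 higher, 30 lower) gave 1 higher with DESeq2, and 2 to 14 higher and 8 to 31 lower without 1 library. The interaction of both sets (4 higher, 0 lower) gave 8 and 5 with no filter, and 1 to 15 and 0 to 22 without 1 library. That of the microglia set with endothelial barcodes (2 higher, 13 lower) gave 1 higher with no filter, 1 and 11 when p was adjusted without rule and split genes, and 0 to 11 and 2 to 15 without 1 library. Without 1 library a group has 1 sample, assumed to vary like the other group.

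The Diabetic minus Ctrl difference in shares moved from 3.40 to -10.3 percentage points after thinning and to 9.41 with a C1q limit of 10 for the P2ry12, Tmem119 or Cx3cr1 criterion, from -6.44 to -3.90 with that limit for Mrc1 and Pf4, and from 7.14 to 2.85 after thinning for MHC class II. Signs reversed over all phagocytes for Apoe (-0.15 in the Mrc1 and Pf4 set), Ccl12 (main -0.52; -1.15 to 0.51 without 1 library, highest without Ctrl 2; 4.36 in the microglia set, 1.78 without MHC class II barcodes) and Ccl2 (main -1.65; 0.67 in the microglia set). The correlation of same-numbered libraries (r = 0.0925) cannot decide whether they share a batch. With 2 libraries per group both pairs give the same r by construction. The block is given only as a setting. The planned tests of the Mrc1 and Pf4 set and of the MHC class II set against other phagocytes were not run, because the sets held too few barcodes (11, 5, 12 and 5, and 3, 2, 13 and 4).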
